A study of Mus musculus with 6 samples.

Results

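The gene described here is Runx3, which encodes a runt domain transcription factor of the cytotoxic T cell lineage. It was examined as a stretch of 85 kb in mouse build mm9, chr4:134660001-134745000, set by position, with transcription on the plus strand. The distal promoter was placed near 134677000 and the proximal promoter about 30 kb downstream, taken as 134707000 for the counts. Reads were counted in 170 bins of 500 bp, out of 5283716 such bins on chromosomes 1 to 19, X and Y. The cells were mature CD4+ and mature CD8+ T cells taken from the thymus of C57BL/6 mice, with no treatment named in the labels. Micrococcal nuclease had reduced the chromatin to mononucleosomes, and rabbit polyclonal antibodies were used to pull down H3K4me3 or H3K36me3. Each cell type also has an input library made with no antibody. There are 6 libraries, 1 for each cell type and mark or input. No value therefore has a replicate check and no p-value is given. The intervals printed are exact 95% intervals and cover counting error only.

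Runx factors bind DNA through the runt domain together with the partner protein CBF beta. In cytotoxic T cells Runx3 silences the Cd4 gene and the helper factor gene Zbtb7b and helps to keep Cd8 genes active. Runx3 is transcribed from distal and proximal promoters with different first exons, which give proteins with different amino ends, and the distal promoter is the one linked to Runx3 protein in cytotoxic T cells. The histone mark H3K4me3 sits at promoters in use, and H3K36me3 is laid down over gene bodies as they are transcribed.

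The letters of both promoters are shown because H3K4me3 differed far more between the cell types at the distal promoter than at the proximal one. The sequences are the 250 bases before each Runx3 start in RefSeq, plus strand, build GRCm38.p6, chr4:135120395-135120644 for the distal promoter and chr4:135152295-135152544 for the proximal promoter. The symbol matched 1 gene and 2 promoter entries. Capitals mark TGTGGT, the runt factor motif, on either strand in the distal sequence, and GGGCGG, the GC box, on either strand in the proximal sequence.
Runx3 distal promoter: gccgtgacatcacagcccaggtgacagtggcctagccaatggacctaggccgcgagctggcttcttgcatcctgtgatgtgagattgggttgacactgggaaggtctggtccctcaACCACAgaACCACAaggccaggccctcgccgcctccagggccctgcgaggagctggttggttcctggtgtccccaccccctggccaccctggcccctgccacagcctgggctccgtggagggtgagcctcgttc
Runx3 proximal promoter: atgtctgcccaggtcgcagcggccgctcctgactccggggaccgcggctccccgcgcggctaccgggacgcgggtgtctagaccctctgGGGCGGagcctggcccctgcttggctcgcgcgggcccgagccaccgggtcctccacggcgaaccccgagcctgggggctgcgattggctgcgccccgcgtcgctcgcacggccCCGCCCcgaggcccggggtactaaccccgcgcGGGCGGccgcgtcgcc

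The distal sequence held 2 runt factor motifs, which begin 134 and 126 bases before the start. Of the 32851 RefSeq promoters of this length 14.0% held at least 1 such motif. The distal sequence had no GC box and 8 CG dinucleotides, against a median of 6 over all promoters, and 43.0% of all promoters had as many or more. The proximal sequence had 3 GC boxes, a motif present in 32.7% of all promoters, and no runt factor motif. It had 38 CG dinucleotides, a number reached by 1.88% of all promoters, and a G and C content of 78.8% against 65.2% in the distal sequence and a median of 52.4%. The E box CANNTG was found 1 time in the distal and 0 times in the proximal sequence and in 66.2% of all promoters, and the TATA box TATAAA was in neither and in 12.4% of all promoters. A match is a run of letters and does not show that a factor binds there.

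In the whole libraries, 10728764 H3K4me3 reads of CD4 and 12114294 of CD8 lay on the chromosomes kept, with 6730337 and 6758121 H3K36me3 reads and 10171739 and 9976535 input reads. The H3K4me3 libraries differed in their background away from enriched regions, which was 19.2% of the input level in CD4 and 1.20% in CD8. Distinct start positions made up 54.4% of the CD4 and 31.4% of the CD8 H3K4me3 reads. The CD8 over CD4 ratio was centred on its median over the 19376 windows of 2 kb enriched for H3K4me3 in both cell types, and over the 24050 windows of 10 kb for H3K36me3. Centring lowers each H3K4me3 log2 ratio of CD8 over CD4 by 0.40 against scaling to total reads, and each H3K36me3 ratio by 0.04. Folds below are relative to that median.

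H3K4me3 at the distal promoter was far higher in CD8 than in CD4 cells. In the 10 kb around the distal position, chr4:134672001-134682000, the CD8 library had 4162 reads and the CD4 library 52. Scaled to 1000000 reads kept in each library (RPM), this was 344 in CD8 (333 to 354) and 4.85 in CD4 (3.62 to 6.36). The inputs held 26 reads in CD8 and 30 in CD4. Over input, the mark stood at 132-fold in CD8 and 1.64-fold in CD4. The centred difference was 53.6-fold higher in CD8 (40.8 to 71.9). In such pools of cells, a mark on fewer cells and a weaker mark on every cell cannot be told apart.

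The size of this difference moved with the handling of repeated reads, and its direction did not. The 4162 CD8 reads had 1285 distinct start positions, or 30.9%, and at most 42 reads began at 1 position. The 52 CD4 reads had 51 distinct starts. With 1 read kept per position the difference was 23.8-fold. With no strand or molecular identifiers, that setting also drops any separate molecules that share a start, and how many was not tested. At the background level of the CD4 library, taken from windows with few reads, 6.06 reads would lie in this window, and the 52 reads exceed it. The CD4 upstream flank exceeds that level too, with 28 reads against 8.89, at 0.603-fold over input. Exceeding it therefore does not show the mark by itself. The 2 best filled CD4 bins were chr4:134676001-134676500 and chr4:134676501-134677000, with 11 reads each, and they lie on the upstream shoulder of the CD8 mark. The window of 2 kb that holds them, chr4:134676001-134678000, had 31 CD4 reads, 7.35-fold over input, and counted as enriched in CD4 as well, beside 2586 reads in CD8.

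At the proximal promoter H3K4me3 was present in both cell types. In chr4:134702001-134712000 the CD4 library had 930 reads and the CD8 library 853, or 86.7 RPM (81.2 to 92.4) and 70.4 RPM (65.8 to 75.3). Relative to the median the level was 1.63-fold higher in CD4 (1.48 to 1.79). On total reads it was 1.23-fold higher in CD4, and with 1 read kept per position, 438 in CD4 and 419 in CD8, the log2 ratio of CD8 over CD4 was -0.15, with an interval from -0.34 to 0.05 that includes no difference. In a narrower window, 2 kb on each side of the stated position, the direction turned, with 81 CD4 and 197 CD8 reads and a log2 ratio of 0.70 (0.32 to 1.09). That window ends inside the mark, before its best filled bins. The CD4 lead at this promoter is therefore not held under every way of counting.

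The inputs differed at the proximal promoter by more than counting error, with 48 reads in CD4 and 17 in CD8, 2.77-fold more RPM in CD4 (1.56 to 5.14). Over input, H3K4me3 in the whole 10 kb stood at 18.4-fold in CD4 and 41.3-fold in CD8, an order opposite to that of the RPM values. In the windows of 2 kb enriched there in both cell types the order was that of the RPM values. In chr4:134708001-134710000 it was 253-fold in CD4 and 208-fold in CD8, with the inputs set to 3 reads. Because both inputs were set to the same number, the order in that window is largely fixed by the RPM values. In chr4:134710001-134712000, with 8 and 6 input reads, H3K4me3 stood at 13.9-fold and 9.33-fold. Fold over input divides the RPM by the input RPM, which was 4.72 in CD4 and 1.70 in CD8 over the 10 kb. The opposite order there therefore enters through the inputs, and why these differed was not tested.

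**Figure D1:**
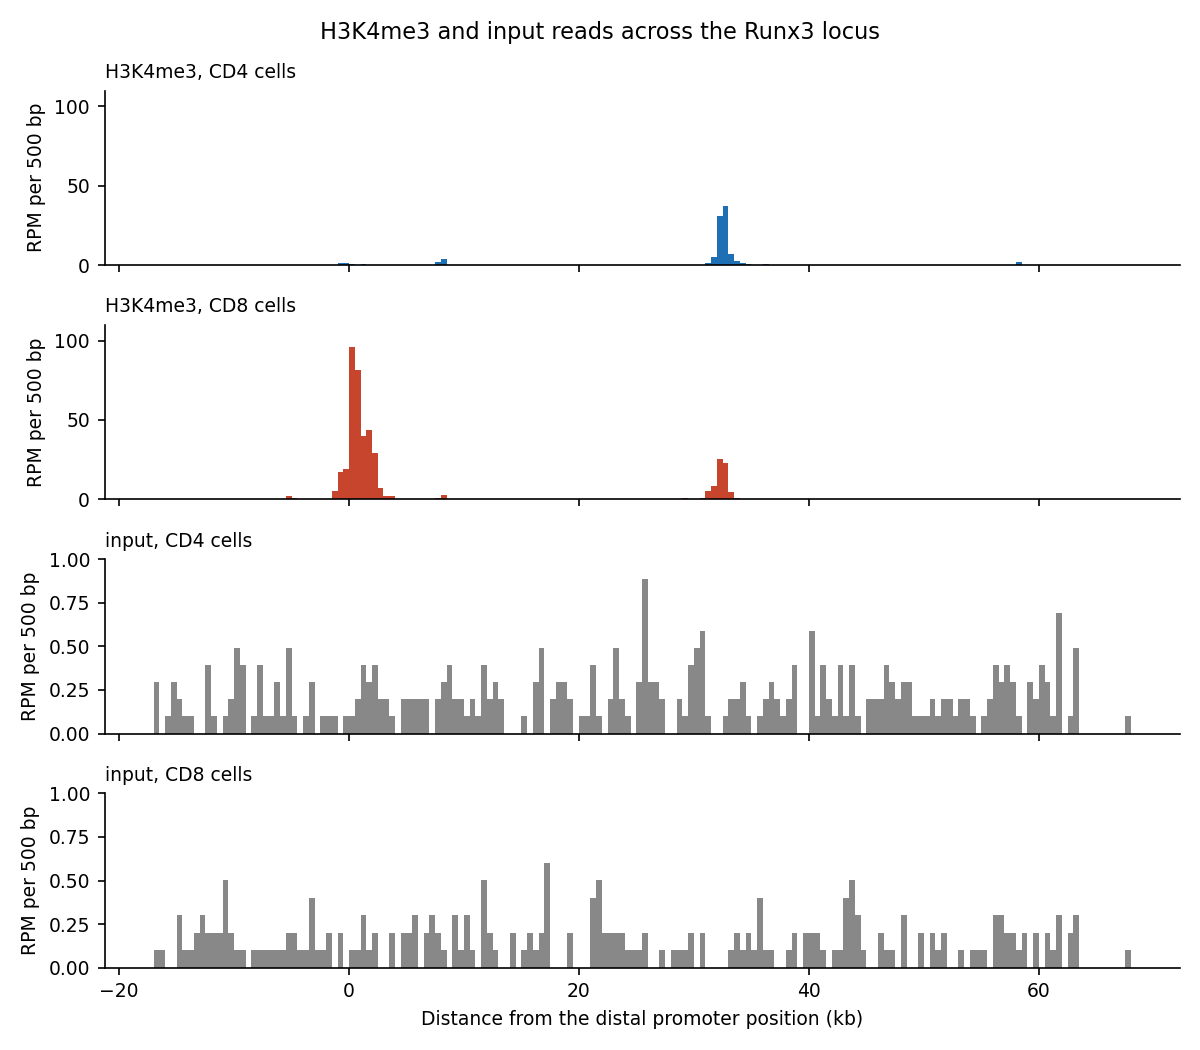
H3K4me3 (upper panels) and input (lower panels) in CD4 and CD8 cells, in RPM per bin of 500 bp, against the distance in kb from the distal promoter position. The CD8 panel has its highest bin, 96.0 RPM, at the distal promoter and 25.6 RPM at the proximal promoter, the CD4 panel reaches 37.0 RPM at the proximal promoter and 1.03 RPM at the distal one, and the input axes are expanded.

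The balance between the promoters does not depend on any scaling between libraries. Of the H3K4me3 reads in both promoter windows, the distal window held 83.0% in CD8 (81.9 to 84.0) and 5.30% in CD4 (3.98 to 6.89). The CD8 library had 4.88 distal reads per proximal read, and the CD4 library 0.0559. The ratio of these ratios was 87.2 (65.2 to 119), and 26.3 with 1 read per position. The same ratio in the inputs was 2.43 (1.07 to 5.65), from 26 and 17 reads in CD8 and 30 and 48 in CD4.

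In bins of 500 bp, 11 of the 20 bins of the distal window were enriched in CD8 and 0 in CD4. A bin counted as enriched with 20 reads or more and an RPM 4 times that of the input or more, with the input set to no less than 3 reads. Of the 170 bins of the locus 7 were enriched in CD4 and 18 in CD8, against 0.865% and 0.784% of all bins of the genome. The 20 bins enriched in either cell type were tested, and a bin was called different at 2-fold or more when an exact interval leaving 0.1% outside excluded equality. All 11 tested bins of the distal window were called higher in CD8, while over all 49544 tested bins of the genome 9.41% were called higher in CD8 and 28.2% higher in CD4. These 11 bins passed the filter only through CD8, with 0 enriched in CD4, so the filter largely fixed their direction and the count supports nothing by itself. The other bins of the window were not tested. The 11 bins held 23 to 1163 CD8 reads, 0 to 11 CD4 reads and at most 4 input reads. The bins with most reads in CD8 were chr4:134677001-134677500, with 1163 against 6 reads in CD4, chr4:134677501-134678000, with 989 against 3, and chr4:134678501-134679000, with 528 against 2. The first of these was 130-fold higher in CD8 (59.4 to 354).

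The proximal window was mixed. Of its 6 tested bins 1 was called higher in CD8, 2 higher in CD4 and 3 were not called. Over all tested bins of the genome 9.41% were called higher in CD8 and 28.2% higher in CD4. With only 6 bins, these counts are not told apart from those shares. The bin higher in CD8 was the most upstream of them, chr4:134708001-134708500, with 67 CD8 and 17 CD4 reads, a 2.64-fold difference. Next to it, chr4:134708501-134709000 had 105 and 56 reads, which was 1.26-fold higher in CD8 (0.899 to 1.77). The bin chr4:134709001-134709500 had 310 CD8 and 330 CD4 reads, 1.59-fold higher in CD4 and below the fold asked for. The bins called higher in CD4 were chr4:134709501-134710000, with 397 CD4 and 274 CD8 reads, a 2.16-fold difference, and chr4:134710501-134711000, with 26 and 7 reads. The most upstream of these bins was enriched only in CD8 and the most downstream only in CD4, so the filter bears on their direction. Over all reads of the window, the median read position was 134709397 in CD8 and 134709568 in CD4. With 1 read per position no bin of the locus was called higher in CD4.

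The shape of the mark also differed between the promoters. As domains, that is runs of 200 bp bins at 4 times the input or more, joined over gaps of up to 400 bp, the distal mark of CD8 cells was 5 kb wide, chr4:134675601-134680600, and no CD4 domain was found there. Of the 14871 CD8 domains 47, or 0.316%, were at least that wide and 43 had as many reads. The proximal domain was 2.4 kb wide in CD8, chr4:134708001-134710400, and 2 kb in CD4, chr4:134708801-134710800. The proximal domain was among the widest 12.9% of 15608 domains in CD4 and the widest 5.13% in CD8. The middle 90% of reads spanned 3.12 kb at the distal promoter in CD8, and 1.99 kb in CD8 and 1.67 kb in CD4 at the proximal promoter.

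In bins of 100 bp each promoter showed a gap with few reads inside the CD8 mark, which was picked out after the profiles were seen. At the distal promoter chr4:134676801-134676900 held 1 CD8 and 1 CD4 read, while the 500 bp before it held 142 CD8 reads and the 500 bp after it 1097. At the proximal promoter chr4:134708401-134708800 held 9 CD8 and 5 CD4 reads, with 68 CD8 reads in the 500 bp before and 262 in the 500 bp after. Both inputs had 0 reads in both gaps, and at this depth the inputs do not show whether nucleosomes were missing there. The gap centres lie 31.75 kb apart, and the Runx3 starts of RefSeq lie 31.9 kb apart in GRCm38. At both promoters most of the mark lay after the gap, in the direction of transcription.

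**Figure D2:**
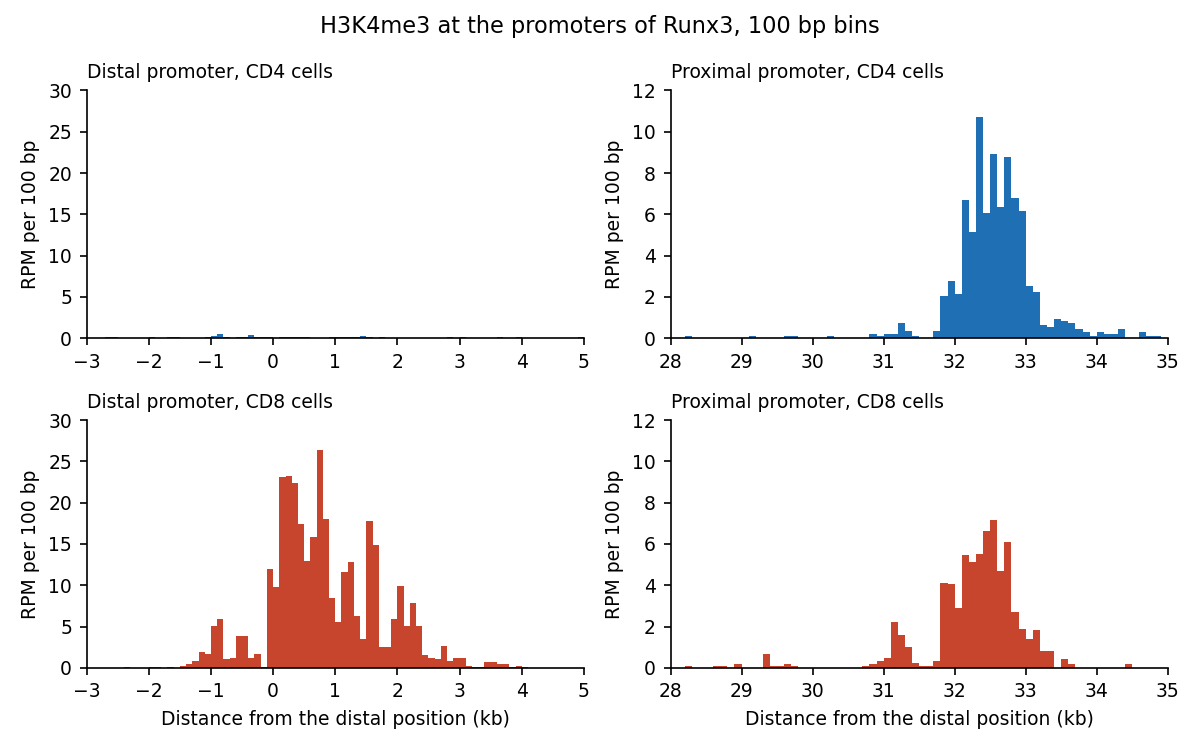
H3K4me3 in RPM per bin of 100 bp around the distal (left) and proximal (right) promoter in CD4 (upper) and CD8 cells (lower), against the distance in kb from the distal position, with different vertical scales left and right. The CD8 mark at the distal promoter has its highest bin of 320 reads after a gap of 100 bp, and at the proximal promoter the 500 bp before the gap hold 68 CD8 and 17 CD4 reads.

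Outside the promoter windows H3K4me3 was sparse, with 3 small elements of at least 10 reads per bin, named after their values were seen. The element at chr4:134684501-134685500 lies 7.5 kb after the distal position and was present in both cell types, with 58 CD4 and 48 CD8 reads against 5 and 3 input reads. Its difference was 1.80-fold higher in CD4 (1.21 to 2.70), and the bin tested there was not called. The element at chr4:134671501-134672000, 5.5 kb before the distal position, held 22 CD8 and 2 CD4 reads, 7.36-fold higher in CD8 (1.81 to 64.6), and was not called. The element at chr4:134735001-134735500, at 58 kb, held 23 CD4 reads from 19 distinct starts and 0 CD8 reads, at least 8.59-fold higher in CD4 by the lower end of the exact interval, and 11.5-fold with CD8 set to a floor of 3 reads per library. It was called, but only CD4 passed the filter there. The background of the CD4 library would give 0.202 reads in that bin.

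Against the whole genome the distal promoter of Runx3 stood at the CD8 end. Among 9530 H3K4me3 domains of 1 kb or wider, those of both cell types merged, the log2 ratio of CD8 over CD4 had a median of 0.11, with 5% of domains below -1.49 and 5% above 0.96. The distal Runx3 domain had 5.99, and 1 domain had a higher ratio. That domain of Runx3 was found in CD8 only, so it entered the list and got its borders through the CD8 reads, which bears on its rank. The proximal Runx3 domain had -0.70, and 12.9% of domains had a lower ratio. On the grid of 2 kb windows 4 of 7 tested windows of the locus were called higher in CD8, against 5.08% of 24614 windows in the genome, and 1 was called higher in CD4, against 25.0%. The windows called higher in CD8, except chr4:134676001-134678000, passed the filter only through CD8. The filter thus largely fixed their direction, and their count supports nothing by itself. This place in the genome rests on 1 library per cell type and is given as a description.

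**Figure D3:**
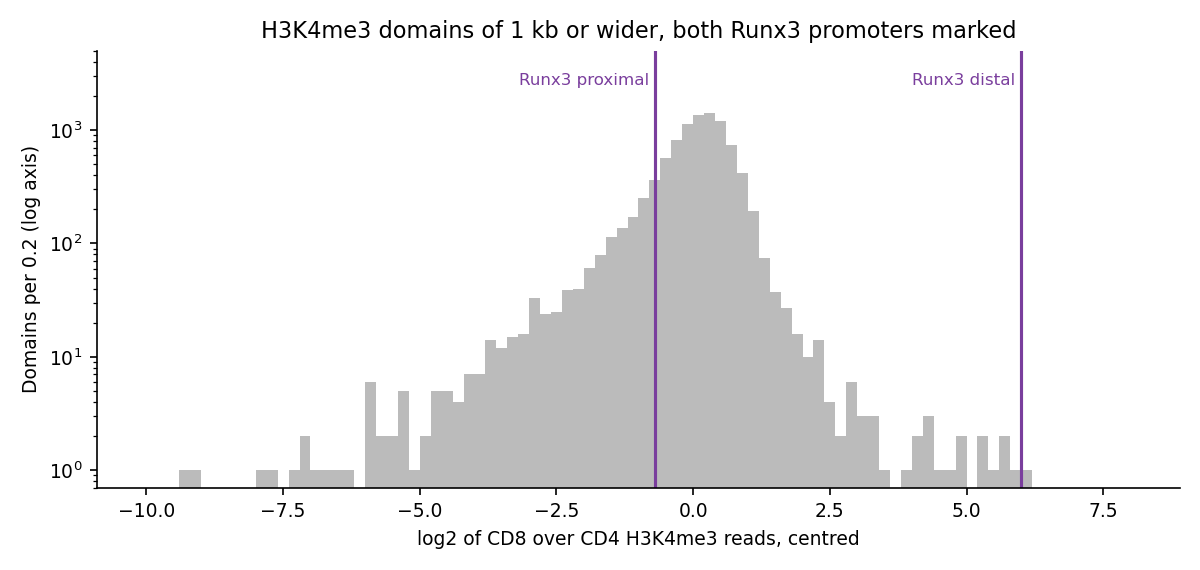
Number of H3K4me3 domains of 1 kb or wider (log axis) by the centred log2 ratio of CD8 over CD4 reads, with the 2 Runx3 promoters as vertical lines. The distal promoter, at 5.99, lies at the far right and the proximal promoter, at -0.70, lies left of the median of 0.11.

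The domains most like the distal promoter were sought by the distance over 4 log2 levels, H3K4me3 over the domain and H3K36me3 over the domain with 10 kb on each side in both cell types, among 9526 other domains. The nearest was chr8:97447001-97449200, at a distance of 1.53, with 1774 CD8 and 31 CD4 H3K4me3 reads. It was followed by chr7:50692401-50695000, at 1.78, with 1469 and 49 reads, and by chr6:71323401-71327400, at 1.97, with 3360 and 71 reads. They are given by position because no mm9 annotation was used here. Around the distal Runx3 domain H3K36me3 was 94 reads in CD8 and 76 in CD4. In order of likeness, the 3 other domains had 156 and 61 on chromosome 8, 67 and 43 on chromosome 7, and 330 and 72 on chromosome 6.

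H3K36me3 lay mainly downstream of the proximal promoter, with no difference between the cell types beyond counting error. In the 20 kb after the proximal window, chr4:134712001-134732000, the CD4 library had 194 reads and the CD8 library 218, or 28.8 RPM (24.9 to 33.2) and 32.3 RPM (28.1 to 36.8). The difference was 1.09-fold higher in CD8, with an interval from 0.894 to 1.33 that includes equality. The inputs held 76 and 49 reads there, 1.52-fold more in CD4 (1.05 to 2.23). Over input the mark stood at 3.86-fold in CD4 and 6.57-fold in CD8, and the lower CD8 input enters that gap.

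Between the promoters H3K36me3 was low, and somewhat higher in CD8. The 20 kb of chr4:134682001-134702000 held 58 reads in CD4 and 92 in CD8, or 0.431 and 0.681 RPM per kb, against 1.44 and 1.61 RPM per kb downstream. The difference was 1.54-fold higher in CD8 (1.10 to 2.18), while the inputs had 72 and 64 reads, a ratio of 0.906 (0.637 to 1.29). Over input, the mark was at 1.22-fold in CD4 and 2.12-fold in CD8. At the background level of each library 15.1 reads would lie there in CD4 and 14.1 in CD8, and both counts exceed it. That level comes from windows chosen for few reads. The upstream flank exceeds it as well, with 38 reads against 9.23 in CD4 and 27 against 7.72 in CD8. Exceeding this level therefore does not show the mark by itself.

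The rise between the promoters was not told apart from the level downstream by these counts. Of the H3K36me3 reads in both stretches, 29.7% lay between the promoters in CD8 (24.6 to 35.1) and 23.0% in CD4 (18.0 to 28.7). The ratio of CD8 over CD4 between the promoters was 1.41 times that downstream, with an interval from 0.948 to 2.11. For the inputs this ratio of ratios was 1.38, with an interval from 0.818 to 2.33 that includes equality. The part of the inputs in the result was not tested. Differences of more than 2.11 times lie outside the interval.

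Pieces of 5 kb show where the gene body mark rose and fell. From 5 kb before to 35 kb after the distal position each piece held 8 to 23 CD4 and 7 to 28 CD8 reads. The piece from 40 to 45 kb held 64 CD4 and 85 CD8 reads, the piece from 45 to 50 kb 37 and 37, and the piece from 50 to 55 kb 73 and 66. The piece from 55 to 60 kb held 32 and 36 reads. The piece from 60 to 65 kb held 12 and 11 reads, a fold over input of 0.864 for CD4 and of 1.48 for CD8, where the background of each library would give 4.40 and 2.43. The end of that piece holds no read of any library. RefSeq gives Runx3 a length of 57.3 kb in GRCm38. The best filled bin, chr4:134728001-134728500, held 21 CD4 and 22 CD8 reads against 1 input read each. Across the proximal H3K4me3 mark H3K36me3 was low, with 8 CD4 and 10 CD8 reads in the piece from 30 to 35 kb.

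**Figure D4:**
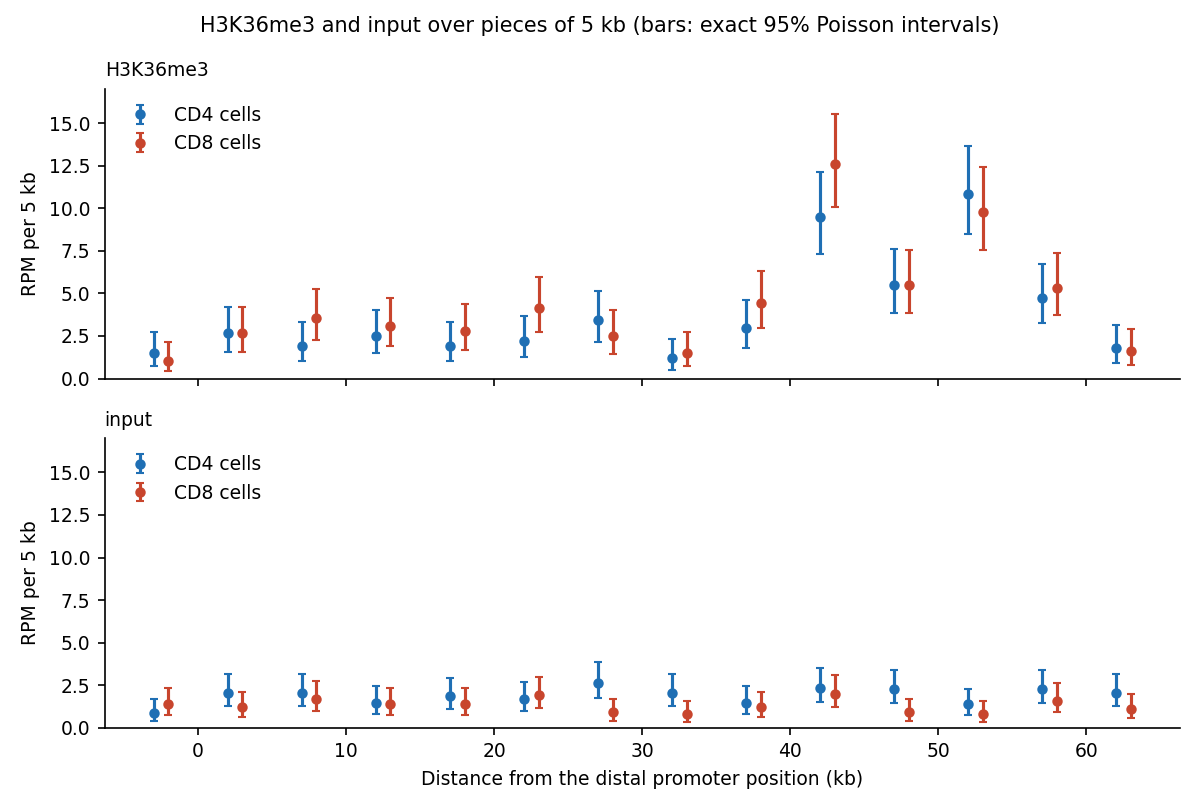
H3K36me3 (upper) and input (lower) in RPM per piece of 5 kb against the distance in kb from the distal promoter position, with exact 95% Poisson intervals as bars, CD4 in blue and CD8 in red. H3K36me3 is highest from 40 to 55 kb in both cell types, where 64 and 85, 37 and 37, and 73 and 66 reads were counted in CD4 and CD8.

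No H3K36me3 window of the locus was called different. Of 9 windows of 10 kb, 5 had at least 20 reads and 2 times the input in either cell type, and 0 were called in either direction, against 0.840% called higher in CD8 and 2.08% higher in CD4 over 30253 windows of the genome. The window just after the distal promoter, chr4:134680001-134690000, had 54 CD8 and 24 CD4 reads, 2.18-fold higher in CD8 (1.33 to 3.69). It was called higher in CD8 when ratios were scaled to total reads and when 1 read per position was kept, but it entered the test only through CD8, at 2.42-fold over input against 0.930-fold in CD4. The window before it, chr4:134670001-134680000, went the other way, with 31 CD4 and 15 CD8 reads, 2.13-fold higher in CD4, and was enriched in neither cell type. Over the distal promoter window itself H3K36me3 had 25 CD8 and 28 CD4 reads, a ratio of 0.866 (0.484 to 1.54). The 53.6-fold H3K4me3 difference at the distal promoter thus stood beside H3K36me3 ratios of 1.54 between the promoters and 1.09 downstream.

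**Figure D5:**
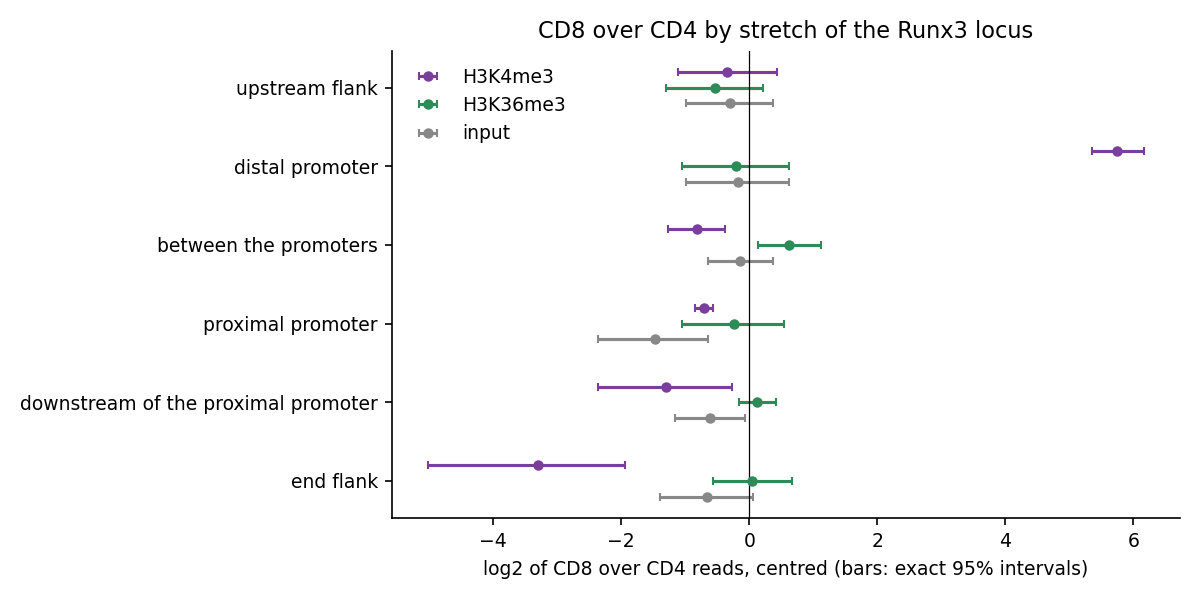
Centred log2 ratio of CD8 over CD4 reads for H3K4me3, H3K36me3 and input in 6 stretches of the Runx3 locus, with exact 95% intervals as bars (input centred on total reads). Only the H3K4me3 point of the distal promoter, at 5.74, lies far to the right of 0, and the H3K36me3 points lie between -0.54 and 0.62. The other H3K4me3 points lie left of 0. The farthest is the end flank at -3.30 (-5.02 to -1.94), from 33 CD4 and 5 CD8 reads. Next is the stretch downstream of the proximal promoter at -1.30 (-2.37 to -0.28), from 23 and 14. Both stretches were below input for H3K4me3, at 0.695-fold in CD4 and 0.147-fold in CD8 in the end flank and 0.287-fold and 0.235-fold downstream. In the end flank 23 of the CD4 reads lie in 1 bin. At the background level of each library 15.4 CD4 and 0.715 CD8 reads would lie downstream. The part of the library backgrounds in these points was not tested.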

How the data were processed

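The deposited values are positions of aligned reads on mm9, per the submitters' processing notes, 1 read of 33 bp per line with no strand or score; aligner, multiple matches and removal of repeats are not stated there. Reads on chromosomes 1 to 19, X and Y (98.3% to 99.8%) were counted at their midpoint. Promoter windows reach 5 kb to each side of the stated positions. Background level was taken from 892185 windows of 2 kb, none within 10 kb of one with more than 9 reads of a mark. Ratio intervals are Clopper-Pearson, conditional on the sum, and repeated reads, with no molecular identifiers, may come from the same molecule. Ratios of ratios have exact conditional intervals. Likeness used log2 RPM with 0.5 reads added.

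The named stretches are the promoter windows, the stretches between and after them, the flanks, each domain, the 3 best filled bins per promoter and cell type, and the 3 most alike domains. Region, members and lists were chosen with earlier results of these data known. Partner gene and cell type marker lists were not applied, because the annotation used here has another build; the cell labels were therefore not checked. Calls, domains and ratios were tested on simulated data. SciPy 1.17.1, NumPy 2.4.6, pandas 2.3.3 and matplotlib 3.10.9 were run under Python 3.11.15.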

Additional observations from a re-analysis of the deposited data

How the results depend on the processing

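Each group holds 1 library, so no library could be left out, and H3K36me3 counts between the promoters, 58 and 92 reads, leave wide intervals. No paired analysis was possible because the groups compared share fewer than 2 replicate numbers. Of 73 values under alternatives 57 stayed inside the interval, within 1.5 times the count or within 200 bp, 15 moved and 1 reversed; for those not set by construction the cause was not tested. Log2 ratios are CD8 over CD4. With 1 read per position the distal promoter had 4.57 for H3K4me3, the proximal -0.15 and their ratio of ratios 4.72; 0 bins were called higher in CD4, 1 H3K36me3 window was called higher in CD8, and proximal domains were 2600 bp in CD4 and 2800 bp in CD8. With total reads the proximal promoter had -0.30 and 1 H3K36me3 window was called higher in CD8. Windows of 2 kb on each side gave the proximal promoter 0.70, a reversal, from 81 CD4 and 197 CD8 reads, because the stated position lies upstream of the mark and the window ends inside it; the ratio of ratios was then 5.09. Windows of 2 kb on each side of the best filled bin, added after seeing the data, gave 5.92, -0.72 and 6.64. Windows of 2 kb in place of bins called 4 higher in CD8 and 1 higher in CD4. Domains at 8 times the input were 1400 bp (proximal, CD4) and 4000 bp (distal, CD8), and pooled inputs gave 3200 bp (proximal, CD4).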

Other observations

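A patch of H3K36me3 stood in the flank upstream of Runx3, picked out after its values were seen. In chr4:134667501-134669000 the CD4 library had 16 H3K36me3 reads and the CD8 library 22, against 5 and 2 input reads and 4 and 0 H3K4me3 reads. The whole upstream flank of 12 kb had 38 CD4 and 27 CD8 H3K36me3 reads, 1.31 and 1.14 times the input. Near the end of the locus chr4:134740402-134744724, 4323 bp long, held no read midpoint of any of the 6 libraries, inputs included, so values there say nothing about either mark.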
